A study of Mus musculus with 10 samples.

Results

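Endothelin-1, nitric oxide and angiotensin set the tone and growth of blood vessels, and adipose tissue holds the genes of all 3 systems. Endothelin-1 (Edn1) is released mainly by endothelial cells as an inactive precursor that the endothelin-converting enzymes Ece1 and Ece2 cleave. It then acts on the receptors Ednra, which constricts smooth muscle, and Ednrb, which in endothelial cells clears the peptide and releases nitric oxide. Nitric oxide made by endothelial nitric oxide synthase (Nos3) binds soluble guanylyl cyclase, an obligate pair of an alpha subunit (Gucy1a1) and a beta subunit (Gucy1b1) that makes cGMP. Angiotensinogen (Agt), known as a product of liver and of adipocytes, is cut by renin and then by angiotensin-converting enzyme (Ace) to angiotensin II. These 10 genes, chosen by name from the 56748 genes of the deposited table, were described in cultured adipocytes with and without Fam20c, a serine/threonine kinase of the secretory pathway.

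RNA-seq covered 5 control libraries, of genotype Fam20c-flox, and 5 Ad-Fam20c–KO libraries (hereafter KO), of genotype Fam20c-flox/Adipoq-Cre, so the floxed allele was common to both groups and the Cre transgene was present only in KO. The cultures were stromal vascular cells of inguinal fat from male mice 6 to 8 weeks old that had been given adipogenic medium and differentiated for 6 to 8 days. Cre driven by the Adipoq promoter acts in adipocytes, so cells of the culture that did not become adipocytes should keep Fam20c. Deletion by cell type was not measured. The labels do not say whether the 5 libraries of a group came from separate mice, so the tests measure the spread between these libraries, which may be technical. Total counts were 18949106 to 26237825 per control library and 19883101 to 23291792 per KO library. Libraries of the same group differed by more than sampling noise. CPM is a gene's count divided by the TMM-scaled total of its library and put on the usual scale of such values, errors are SDs with n = 5, and adjusted p values come from edgeR's quasi-likelihood test over all genes tested. Fam20c itself was at 10.2 ± 1.29 CPM in the control group against 7.30 ± 0.449 CPM in the KO group, without overlap (log2 fold change -0.49, adjusted p = 0.0137), in counts that do not separate the floxed part of the gene from the rest. The adipocyte markers Adipoq (1759 and 1820 CPM) and Plin1 (1139 and 1194 CPM) were high in both groups. Control library 4 and KO library 1 lay apart from the rest on the first principal component, which held 23.5% of the variance, and some results are given also without both.

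Ednrb, Gucy1a1 and Gucy1b1 were lower in KO, and no gene of the group was higher. Ednrb was at 16.9 ± 0.940 CPM in control and 8.24 ± 1.12 CPM in KO libraries (SD, n = 5 each), 0.487 times the control level. The cyclase subunits Gucy1a1 and Gucy1b1 differed by -0.84 and -0.53 on the log2 scale. Of the 10 genes, 9 had enough counts to be tested, 3 of them were lower at an adjusted p under 0.05 and 6 did not pass, and by DESeq2 and limma voom too none was higher. Across all 14270 genes tested, 1.86% were lower, 0.308% were higher and 2.17% were called in either direction at the same limit. For the same 3 genes every KO library lay below every control library, as was so for 2.66% of all tested genes. The other 6 overlapped, and none had every KO library above every control library, as 1.31% of all tested genes had. An unadjusted p under 0.05 was found for 6 of the 9, of which 5 were lower and 1, Agt, was higher, against 11.9% of all genes in either direction. The group was put together with results of this comparison already known, so its counts, fold changes and p values are a description of these genes and not independent evidence.

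**Figure D1:**
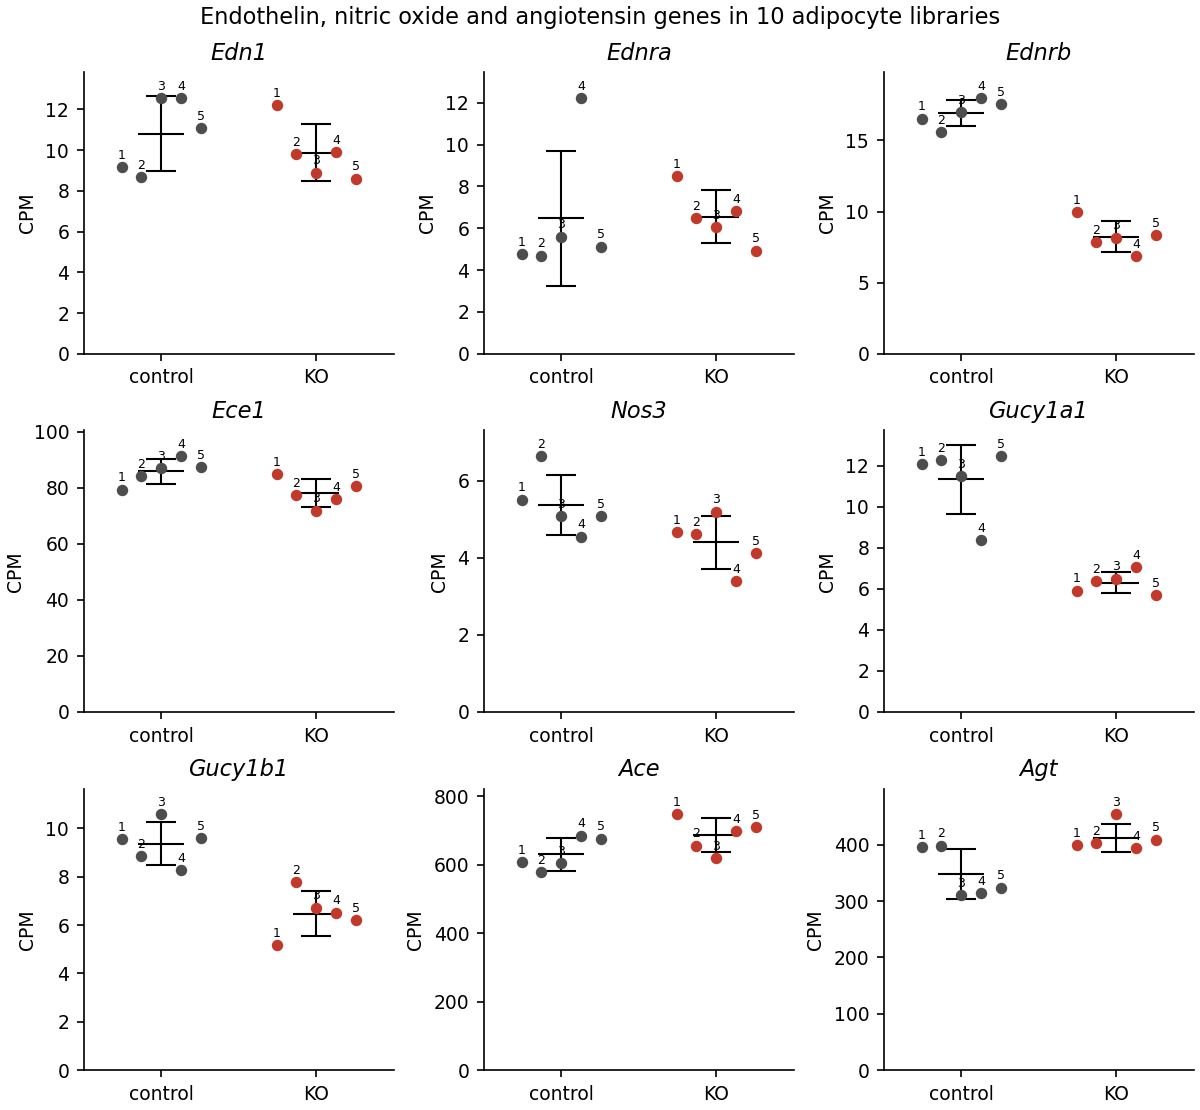
CPM (vertical axis, starting at 0) of 9 genes in the 5 control (grey) and 5 KO (red) libraries, numbered as in the labels; the long bar is the group mean and the error bar its SD. The KO points lie wholly below the control points in the panels of Ednrb, Gucy1a1 and Gucy1b1, and control library 4 stands alone at the top for Ednra (12.2 CPM) and at the bottom of its group for Gucy1a1 (8.37 CPM).

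Among the endothelin genes, the ligand showed no difference beyond the spread between libraries. Edn1 (ENSMUSG00000021367.9, chr13:42301476-42307990 on the plus strand of GRCm38) was at 9.18, 8.66, 12.6, 12.6 and 11.1 CPM in control libraries 1 to 5 and at 12.2, 9.79, 8.90, 9.89 and 8.60 CPM in KO libraries 1 to 5. The ranges lay almost on top of each other. On the log2 scale the difference was -0.13 (SE 0.126, 95% interval -0.40 to 0.14, adjusted p = 0.791).

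The converting enzyme Ece1 (ENSMUSG00000057530.15, chr4:137862237-137965229, plus strand) was at 79.2, 84.2, 86.9, 91.3 and 87.3 CPM in control libraries and at 84.8, 77.4, 71.8, 75.9 and 80.5 CPM in KO libraries. The groups overlapped, since control library 1 lay below KO libraries 1 and 5. Its log2 fold change was -0.14 (SE 0.0521, 95% interval -0.25 to -0.02), and the adjusted p was 0.286. Ece2 (ENSMUSG00000022842.19, chr16:20629828-20646485, plus strand), the related enzyme best known from neural tissue, gave 2, 2, 2, 0 and 4 counts in control and 0, 1, 0, 1 and 0 counts in KO libraries. With 12 counts in all it was too low to test, and it shares 2937 exonic bases with the same-strand gene Gm49333, to which reads may also be assigned. Gm49333 had 0 counts in every library, and whether fragments of the shared bases were left out of both counts is not stated, so the level of Ece2 is uncertain.

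Of the receptors, Ednrb passed the limit and Ednra did not. Ednrb (ENSMUSG00000022122.16, chr14:103814625-103844402, minus strand) was at 16.5, 15.6, 16.98, 17.99 and 17.5 CPM in control libraries and at 9.97, 7.86, 8.16, 6.87 and 8.35 CPM in KO libraries. The lowest control library stood well above the highest KO library, without overlap. The log2 fold change was -1.04 (SE 0.0886, 95% interval -1.23 to -0.85, adjusted p = 6.1e-05), which placed Ednrb 9th of all tested genes by p value. With each library left out in turn it was between -1.11 and -0.98 and passed the limit in all 10 fits. Without control library 4 and KO library 1 it was -1.09.

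Ednra (ENSMUSG00000031616.8, chr8:77663031-77724464, minus strand) was at 4.77, 4.69, 5.60, 12.2 and 5.11 CPM in control libraries and at 8.48, 6.50, 6.07, 6.83 and 4.94 CPM in KO libraries. Control library 4 was above all others, and KO library 1 was the highest of its group. A log2 fold change of 0.03 was found (SE 0.255, 95% interval -0.53 to 0.58, adjusted p = 0.989). This value rests on control library 4: without it the log2 fold change was 0.38, without that library and KO library 1 it was 0.28 (adjusted p = 0.262), and leaving out a single library turned it slightly negative in 5 of 10 cases, down to -0.078. Within a library, the log2 ratio of Ednra to Ednrb was -1.48 ± 0.522 in control and -0.34 ± 0.273 in KO libraries (SD, n = 5 each), a difference of 1.14. In 4 control libraries the ratio lay between -1.77 and -1.59, in control library 4 it was -0.55, and in KO libraries it ran from -0.75 to -0.01.

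Among the nitric oxide genes, both subunits of the receptor passed the limit and the synthase did not, and the difference between them was not tested. Nos3 (ENSMUSG00000028978.13, chr5:24364810-24384474, plus strand) was at 5.51, 6.64, 5.08, 4.55 and 5.07 CPM in control libraries and at 4.66, 4.61, 5.19, 3.39 and 4.12 CPM in KO libraries. KO libraries 1 to 3 lay inside the control range and KO libraries 4 and 5 below it. Its log2 fold change was -0.29 (SE 0.132, 95% interval -0.58 to -0.00, adjusted p = 0.409). On the opposite strand, Nos3 shares 1040 exonic bases with the antisense gene Gm15587, which had 5 counts over all 10 libraries, and 294 exonic bases with Atg9b. Atg9b was at 1.43 CPM in control and 1.37 CPM in KO libraries, and since the strand setting of the counting is not stated, fragments of Nos3 and these genes may be mixed or lost from the count.

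Gucy1a1 (ENSMUSG00000033910.14, chr3:82092427-82145789, minus strand) was at 12.1, 12.3, 11.5, 8.37 and 12.5 CPM in control libraries and at 5.90, 6.37, 6.50, 7.05 and 5.70 CPM in KO libraries. Control library 4 was the lowest of its group and still lay above every KO library. On the log2 scale the difference was -0.84 (SE 0.111, 95% interval -1.09 to -0.60, adjusted p = 0.00114), the 59th lowest p value of all tested genes. It stayed between -0.93 and -0.81 with each library left out and passed the limit in all 10 fits.

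Gucy1b1 (ENSMUSG00000028005.14, chr3:82032006-82074689, minus strand) was at 9.54, 8.85, 10.6, 8.27 and 9.60 CPM in control libraries and at 5.16, 7.77, 6.72, 6.51 and 6.21 CPM in KO libraries. KO library 2 came closest to control library 4, and the groups did not overlap. The log2 fold change was -0.53 (SE 0.107, 95% interval -0.76 to -0.30, adjusted p = 0.0200). This call was the least firm of the 3: it passed in 5 of the 10 leave-one-out fits (control libraries 1, 3 and 5 and KO libraries 4 and 5 ended it, with adjusted p up to 0.0651), while the size of the difference ran from -0.60 to -0.46.

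The subunit genes are neighbours on chromosome 3, on the same strand, 17.7 kb apart with 0 annotated genes between them. Their log2 ratio within a library, alpha to beta, was 0.26 ± 0.188 in control and -0.03 ± 0.189 in KO libraries (SD, n = 5 each), a difference of -0.29, and the groups overlapped (0.02 to 0.47 and -0.28 to 0.19). The alternative alpha subunit Gucy1a2 had 6 to 16 counts per library and the alternative beta subunit Gucy1b2 had 0 counts in every library, so Gucy1a1 and Gucy1b1 gave most of the counts of the enzyme.

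The promoter sequences of the 3 lower genes are shown because these genes passed the limit. Each line holds the 250 bases before the RefSeq transcript start, 5′ to 3′ on the strand of the gene, from GRCm38.p6: chr14:103843702-103843951 for Ednrb, chr3:82145651-82145900 for Gucy1a1 and chr3:82074712-82074961 for Gucy1b1, all on the minus strand. Gucy1a1 has a further listed start, not shown. Capitals mark a GC box.
Ednrb: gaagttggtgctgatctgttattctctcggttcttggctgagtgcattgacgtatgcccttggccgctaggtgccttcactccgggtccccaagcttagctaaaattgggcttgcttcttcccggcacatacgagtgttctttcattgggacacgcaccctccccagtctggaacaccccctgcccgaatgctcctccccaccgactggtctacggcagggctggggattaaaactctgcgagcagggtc
Gucy1a1: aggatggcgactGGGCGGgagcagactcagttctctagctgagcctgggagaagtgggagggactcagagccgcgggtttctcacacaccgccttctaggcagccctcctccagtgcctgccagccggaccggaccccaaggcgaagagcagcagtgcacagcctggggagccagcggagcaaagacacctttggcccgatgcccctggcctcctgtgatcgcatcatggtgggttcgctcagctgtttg
Gucy1b1: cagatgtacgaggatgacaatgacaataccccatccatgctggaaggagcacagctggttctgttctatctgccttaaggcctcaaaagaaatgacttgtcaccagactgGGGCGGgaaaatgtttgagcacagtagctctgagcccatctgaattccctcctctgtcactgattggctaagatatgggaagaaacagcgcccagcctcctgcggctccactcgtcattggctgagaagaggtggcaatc
Short motifs were searched on both strands in these and in all 32851 promoter windows of the same length. The TATA box, read as the letters TATAAA, occurred in 12.4% of windows. The GC box, read as GGGCGG, occurred in 32.7%. The GATA motif was read as AGATAA and occurred in 9.99%, and the ETS motif was read as AGGAAG and occurred in 29.5%. The Ednrb window held none of them. It lies inside the annotated gene, whose 5′ end is at 103844402, and the bases before that end were not searched. The windows shown for Gucy1a1 and Gucy1b1 held a GC box each, 238 and 140 bases before the start, and no other motif of the search. The window of the further Gucy1a1 start held an ETS motif 39 bases before that start and no GC box. 

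The angiotensin genes were the most abundant of the group and none passed the limit. Ace (ENSMUSG00000020681.15, chr11:105967945-105989964, plus strand) was at 607.2, 578.4, 603.9, 684.8 and 676.0 CPM in control libraries and at 747.6, 655.7, 619.2, 698.6 and 709.9 CPM in KO libraries. KO libraries 1, 4 and 5 lay above the control range and KO libraries 2 and 3 inside it. Its log2 fold change was 0.12 (SE 0.0618, 95% interval -0.01 to 0.26, adjusted p = 0.474).

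Agt (ENSMUSG00000031980.11, chr8:124556534-124569706, minus strand) was at 395.6, 398.3, 310.1, 314.1 and 324.1 CPM in control libraries and at 398.9, 402.8, 454.3, 394.4 and 409.1 CPM in KO libraries. Control libraries 1 and 2 were level with the KO libraries, whereas control libraries 3 to 5 lay well below all of them. The log2 fold change was 0.24 (SE 0.0775, 95% interval 0.07 to 0.41), and the adjusted p was 0.179. Leaving out each library gave values between 0.21 and 0.29, none past the limit. Genes on the opposite strand overlap exons of Edn1 (Gm47118), Ednra (4933431K23Rik) and Ace (Gm11651), with 1, 3 and 39 counts over all 10 libraries.

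The promoters of Ace and Agt are shown as examples from the genes that did not pass the limit. They cover chr11:105967698-105967947 on the plus strand and chr8:124569707-124569956 on the minus strand of GRCm38.p6, and capitals mark all matches to the motifs. A further listed start of Ace is not shown.
Ace: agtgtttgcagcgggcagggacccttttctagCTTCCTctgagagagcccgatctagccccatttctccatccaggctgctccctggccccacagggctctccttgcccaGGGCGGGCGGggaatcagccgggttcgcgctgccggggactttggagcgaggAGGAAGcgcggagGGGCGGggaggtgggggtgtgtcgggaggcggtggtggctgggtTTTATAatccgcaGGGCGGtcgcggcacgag
Agt: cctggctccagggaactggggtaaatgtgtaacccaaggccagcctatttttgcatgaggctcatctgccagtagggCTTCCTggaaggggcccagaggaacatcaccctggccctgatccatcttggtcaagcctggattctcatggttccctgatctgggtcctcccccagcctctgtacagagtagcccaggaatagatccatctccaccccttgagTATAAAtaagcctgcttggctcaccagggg
Both windows held a TATA box, 31 bases before the start in Ace and 30 in Agt. Ace also had 4 GC boxes, of which a pair overlapped, and 2 ETS motifs. Agt had 1 ETS motif and no GC box. The window of the further Ace start held no motif of the search. Other genes that did not pass differed from both: the Edn1 window held no motif, and Ednra had 2 ETS motifs only. The Ece1 windows had GC boxes or no motif. In the windows searched, the motifs therefore did not divide the lower genes from the rest.

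**Figure D2:**
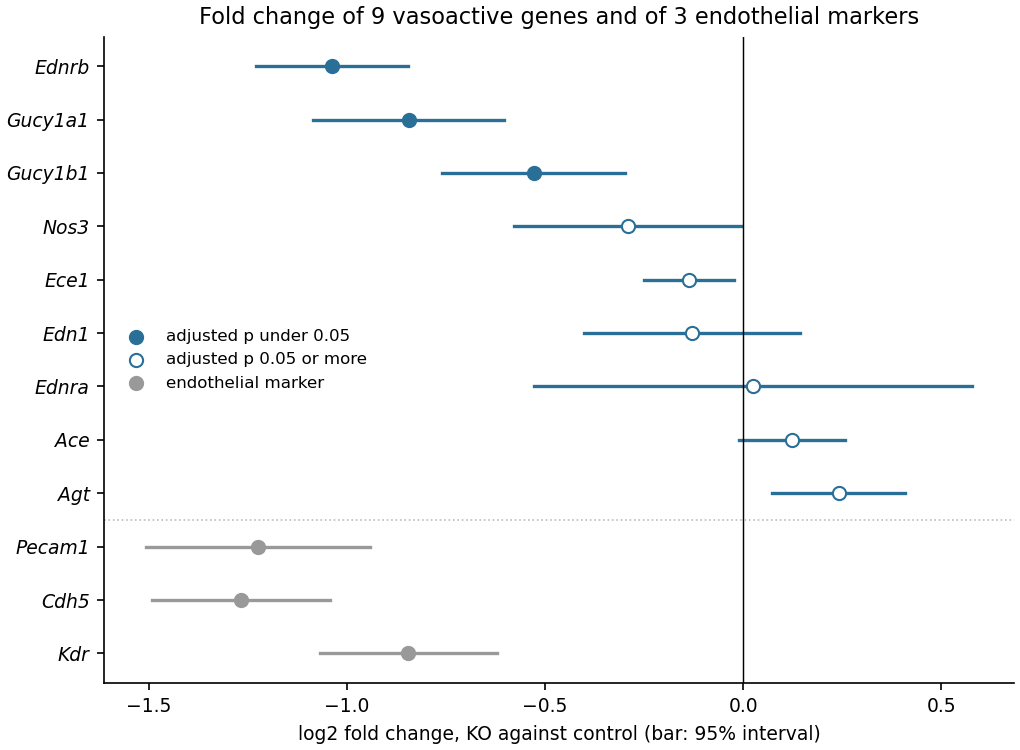
Log2 fold change of KO against control (horizontal axis) for the 9 tested genes and 3 endothelial markers, with bars for the 95% interval; filled points passed an adjusted p of 0.05. The intervals of Ednrb, Gucy1a1 and Gucy1b1 lie wholly below 0, as do those of Ece1 and Nos3, which did not pass the adjusted limit, that of Agt lies wholly above 0, those of Edn1, Ednra and Ace cross it, and the endothelial markers (grey) lie at -1.27 to -0.85.

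Levels of different genes were compared per kb of exon. In control libraries, Agt (184 CPM per kb) and Ace (119 CPM per kb) stood far above Ece1 (16.2), Edn1 (5.05), Ednrb (3.97), Gucy1b1 (2.39), Gucy1a1 (1.63), Nos3 (1.30) and Ednra (1.18 CPM per kb). Libraries of neighbours in that order overlapped for Edn1 and Ednrb, for Gucy1a1 and Nos3 and for Nos3 and Ednra, so these pairs had no clear order. In KO libraries Ednrb was at 1.93 CPM per kb, and its range overlapped that of Gucy1b1 (1.65) and no longer that of Edn1 (4.62). Gucy1a1, at 0.905 CPM per kb, was last in KO libraries, where the ranges of Gucy1b1, Ednra (1.20), Nos3 (1.06) and Gucy1a1 overlapped from each to the next.

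**Figure D3:**
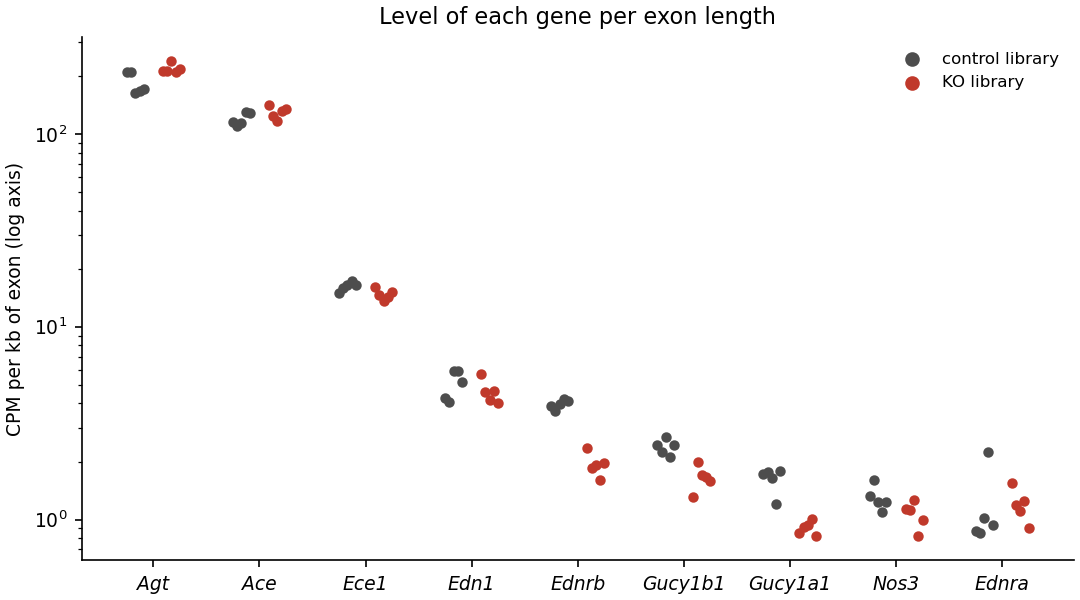
CPM per kb of exon (vertical log axis) of 9 genes in each control (grey) and KO (red) library, ordered by the control mean. Agt and Ace lie above 100 CPM per kb in every library, while the endothelin receptors, Nos3 and the cyclase subunits lie under 5 CPM per kb.

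Markers of endothelial cells were also lower in KO. Of the 20 endothelial markers listed, all were tested, 17 were lower and 0 were higher in KO, with a median log2 fold change of -1.22 against -0.00 over all genes tested. Their summed level was 240.2 to 282.0 CPM in control and 109.4 to 153.5 CPM in KO libraries, without overlap, and none was at 0. Pecam1 (42.0 and 17.98 CPM), Cdh5 (53.1 and 22.1 CPM) and Kdr (7.89 and 4.40 CPM), an adhesion molecule, a junctional cadherin and a VEGF receptor, had log2 fold changes of -1.23, -1.27 and -0.85. Fewer endothelial cells in a culture and less RNA of these genes per cell cannot be told apart in bulk RNA, and the part of the endothelial markers in the differences of Ednrb, Gucy1a1 and Gucy1b1 was not tested.

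Relative to the mean log2 level of these 20 markers in the same library, the genes separated. Ednrb was at 0.87 ± 0.0633 in control and 0.89 ± 0.0778 in KO libraries (SD, n = 5 each), a difference of 0.01, and with each library left out the difference was between -0.02 and 0.04. Ednrb mRNA thus kept its proportion to the mean of the endothelial markers to within the spread between libraries. The single markers ranged from -1.65 to -0.19 in log2 fold change, so this holds for their mean and not for each marker. Gucy1a1 was at 0.29 ± 0.301 in control and 0.51 ± 0.265 in KO libraries, a difference of 0.22 with overlap. Gucy1b1 was at 0.03 ± 0.150 and 0.54 ± 0.344, a difference of 0.52 in which only KO library 1 (-0.02) overlapped the control range and the other 4 KO libraries lay above it. Nos3, in contrast, was at -0.77 ± 0.280 in control and -0.01 ± 0.137 in KO libraries, without overlap, so that it stood higher against the endothelial markers in every KO library. Edn1 differed by 0.93 in the same direction and without overlap (0.01 to 0.37 in control and 0.91 to 1.39 in KO libraries). Ece1, Ace and Agt differed by 0.91, 1.17 and 1.30. The mean of the markers itself differed by -1.05, so a gene of equal CPM in both groups stands about that much higher on this scale. Ednra differed by 1.15, with overlap only through control library 4. These values describe the libraries and carry no test.

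**Figure D4:**
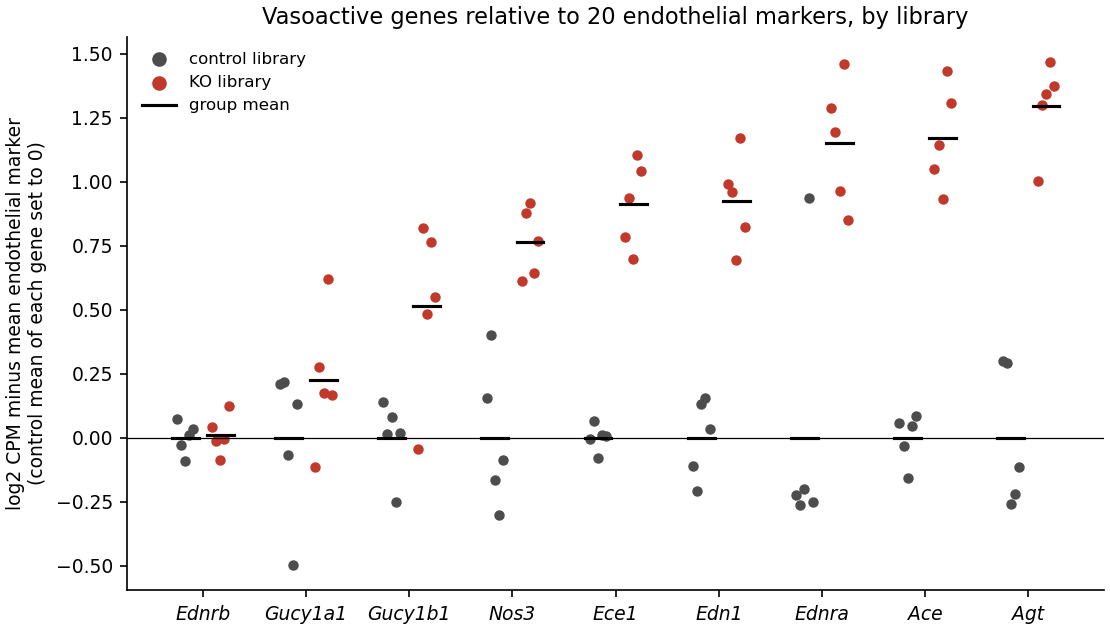
Log2 CPM of each gene minus the mean log2 CPM of 20 endothelial markers in the same library (vertical axis), with the control mean of each gene set to 0; grey points are control and red points KO libraries, and bars are group means. Ednrb stays near 0 in both groups, Gucy1a1, Gucy1b1 and Ednra overlap between groups, and Nos3, Edn1, Ece1, Ace and Agt lie wholly above the control libraries in KO.

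Such cultures can hold further cell types, whose markers were counted in the same way. Of 14 markers of pericytes and smooth muscle, which express soluble guanylyl cyclase and Ednra in vessel walls, 11 were tested and 0 passed in either direction, with 5 at an unadjusted p under 0.05, a median log2 fold change of -0.13 and summed levels of 336.3 to 474.6 CPM in control and 313.9 to 432.9 CPM in KO libraries. Those 5 all had negative fold changes, as did 9 of the 11 tested. Kcnj8 (2.15 and 1.48 CPM, adjusted p = 0.162) and Abcc9 (7.34 and 5.48 CPM, adjusted p = 0.124), channel subunits of pericytes, had no overlap between groups and did not pass. Pdgfrb was at 91.5 and 86.6 CPM and Acta2 at 26.5 and 19.9 CPM (adjusted p = 0.836 and 0.405), while the pericyte marker Rgs5 (0.700 and 0.279 CPM) had only 3 to 22 counts per library and was not tested. The highest summed pericyte and smooth muscle level of all libraries was that of control library 4, the library with the most Ednra. Pdgfrb was also highest there (104.6 CPM), while Acta2 was highest in control library 3 (38.0 CPM) and Rgs5 in control library 5 (0.930 CPM). A link between these markers and Ednra was not tested. Of 12 progenitor and fibroblast markers, 4 were lower and 0 higher, with a median log2 fold change of -0.30 and summed levels of 5110 to 6604 CPM in control and 4256 to 5065 CPM in KO libraries, all KO libraries below all control libraries. Of 12 adipocyte markers, 0 passed, 5 had an unadjusted p under 0.05, 10 of 12 fold changes were positive with a median of 0.08, and the summed level was 32584 to 33325 CPM in control and 34111 to 36149 CPM in KO libraries, all KO libraries above all control libraries. Abundant genes weighed most on these sums. Mean levels in control and KO libraries were 2630 and 1896 CPM for the fibroblast marker Col3a1 and 20805 and 22552 CPM for the adipocyte marker Fabp4. The lymphatic list had 2 of 5 tested genes lower, Flt4 and Mmrn1 (log2 fold changes -1.07 and -1.34), with a median of -0.70. All 5 lymphatic fold changes were negative, 4 of them at an unadjusted p under 0.05. The macrophage list had 1 of 12 lower, with a median log2 fold change of -0.04. Summed levels of both lists overlapped between groups. Lyve1, the most abundant lymphatic marker, had a log2 fold change of -0.05 and weighed most on the lymphatic sum. Whether the proportions of these cells bear on the 9 genes was not tested.

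Of 16 other endothelin genes, 12 were tested and 0 passed in either direction, with 0 at an unadjusted p under 0.05, a median log2 fold change of -0.04 and a range from -0.12 to 0.22. The lowest p values belonged to the phospholipase Plcb4 (12.6 and 11.5 CPM, adjusted p = 0.653) and the receptor kinase Grk2 (55.6 and 52.9 CPM, adjusted p = 0.655). The ligand Edn2 had 0 counts and Edn3 0 to 6 counts per library, so Edn1 was the endothelin measured here.

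Of 37 other genes of nitric oxide and cGMP, 29 were tested and 0 passed, with 5 at an unadjusted p under 0.05, of which 3 were lower and 2 higher. The median log2 fold change was -0.03. Prkg2, a cGMP-dependent kinase, was at 4.22 and 3.04 CPM (log2 fold change -0.48, adjusted p = 0.0843), and the arginine transporter Slc7a1 at 64.7 and 73.9 CPM (0.19, adjusted p = 0.252). Prkg1, the cGMP-dependent kinase of smooth muscle, was at 3.58 and 3.70 CPM, the cGMP phosphodiesterase Pde5a at 14.5 and 16.3 CPM and the inducible synthase Nos2 at 1.48 and 1.37 CPM, and none of these passed. The neuronal synthase Nos1 had 4 to 17 counts per library and was not tested.

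Of 21 other renin-angiotensin genes, 14 were tested and 0 passed, with 4 at an unadjusted p under 0.05, of which 2 were lower and 2 higher, and a median of -0.01. The genes with the lowest p values were Kng1, a kininogen with a close paralog with which fragments could be shared (1.27 and 2.49 CPM, log2 fold change 0.99, adjusted p = 0.0809), and Agtrap, which binds the angiotensin receptor (42.1 and 48.2 CPM, 0.19, adjusted p = 0.0833). The angiotensin receptor Agtr1a was at 9.57 and 8.03 CPM (adjusted p = 0.439). Renin (Ren1) had 1 to 15 counts and the receptor Mas1 0 counts per library, so the substrate Agt and the enzyme Ace were abundant while renin was barely detected.

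Of 31 other vasoactive peptide and prostanoid genes, 21 were tested, 3 were lower and 0 higher, with a median of -0.08. An unadjusted p under 0.05 was found for 6, of which 4 were lower and 2 higher. Npr2, a membrane guanylyl cyclase and the receptor of C-type natriuretic peptide, was at 42.4 ± 2.42 CPM in control and 34.0 ± 1.80 CPM in KO libraries (SD, n = 5 each; log2 fold change -0.32, adjusted p = 0.00659). Ramp3, a partner of the adrenomedullin receptor, was at 0.934 and 0.287 CPM (-1.67, adjusted p = 0.00941), and the neuropeptide Y receptor Npy1r at 0.966 and 0.348 CPM (-1.43, adjusted p = 0.0326). The last pair rested on 4 to 30 and 2 to 25 counts per library. All 3 lacked overlap between groups, and with a minimum count of 30 only Npr2 was still tested and called. In the other direction, Calca (1.04 and 1.56 CPM, 20 to 40 counts per library) had every KO library above every control library. It did not pass (log2 fold change 0.60, adjusted p = 0.0626).

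**Figure D5:**
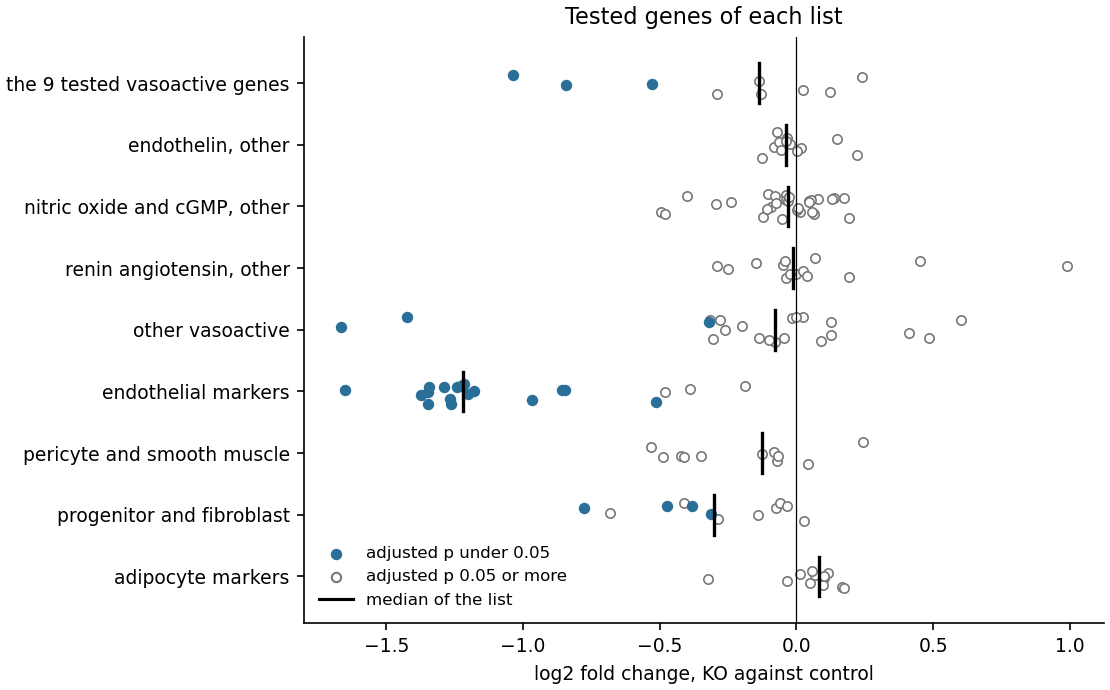
Log2 fold change of KO against control (horizontal axis) of each tested gene in 9 lists (rows); filled points passed an adjusted p of 0.05 and the bar is the median of the list. Points of the other endothelin, nitric oxide and renin-angiotensin genes gather around 0 with none filled, and most endothelial markers are filled and lie below -0.8.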

How the data were processed

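The authors prepared 5 control and 5 KO libraries by SMARTer v4 amplification and Nextera XT tagmentation. Their paired-end reads were aligned by STAR to the mouse genome GRCm38.p6 (mm10 in the submitters' processing notes), fragments were assigned to Ensembl genes by featureCounts, and raw counts were deposited. The strand setting is not stated.

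Deposited counts were filtered with filterByExpr (minimum count 10), scaled by TMM factors and compared, KO against control and unpaired, by the 2-sided quasi-likelihood test of edgeR 4.0.16 (R 4.3.3), with Benjamini-Hochberg adjustment over 14270 genes and a limit of 0.05. The SE was taken as the absolute log2 difference over the root of the F statistic. Log2 CPM used a prior count of 2. Exon lengths and positions are those of GENCODE M21, which held 52073 of the 56748 gene identifiers, and promoters those of RefSeq, which matched 9 of the 10 genes. The method was tested on simulated counts.

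The 10 genes and the lists were chosen with earlier results of these data known. Genes named are these 10, those of each pathway list past the limit (else the 2 with the lowest p), fixed markers and Fam20c; other list genes were picked with their values in view. The permutation test planned for ratios between genes is not printed, since they use the comparison on which genes were chosen, and the Ece1 to Ece2 ratio was not computed because Ece2 was too low. Alternatives were DESeq2 1.42.0, other scalings and filters, limma 3.58.1 voom, a replicate block, another prior count, another length and each library left out; leaving out control library 4 and KO library 1 together was added after the data were seen.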

Additional observations from a re-analysis of the deposited data

Results flagged for a closer look

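A library lying far from the other 4 of its group, by Dixon's ratio of the gap to the whole range with a critical value of 0.71, was found in 5 of the 80 groups of values examined, where chance gives about 4. Control library 4 was apart for Ednra (12.2 CPM against 4.69 to 5.60 CPM in the other control libraries, ratio 0.879), for Gucy1a1 (8.37 CPM against 11.5 to 12.5 CPM, ratio 0.758) and for the log2 ratio of Ednra to Ednrb (-0.55 against -1.77 to -1.59, ratio 0.847). KO library 3 was apart for Agt (454.3 CPM against 394.4 to 409.1 CPM in the other KO libraries, ratio 0.755). Control library 3 was apart for Slc7a1 (57.8 CPM against 65.6 to 67.1 CPM, ratio 0.838).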

How the results depend on the processing

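Over 18 alternatives Ednrb and Gucy1a1 passed the limit in all 18 and Gucy1b1 in 12, with log2 fold changes of -1.11 to -0.98, -0.93 to -0.81 and -0.60 to -0.46, and no other gene of the 10 passed in any. Leaving out each library gave an Ednra log2 fold change of -0.078 to 0.38 and a Gucy1b1 value of -0.60 to -0.46. It gave 164 to 323 lower genes (main 265), lowest without KO library 2, and 19 to 119 higher genes (main 44), highest without control library 4 and lowest without control library 5. The higher count was 125 with DESeq2, 111 with limma voom and 145 without both control library 4 and KO library 1, and the cause was not tested. Of the other nitric oxide genes, 1 was called with DESeq2, voom or both libraries left out (0 to 1 with each left out, 1 without control library 4 or KO library 1). Of the other renin-angiotensin genes, 2 were called with DESeq2, 2 with voom, 1 with no filter on low counts and 3 without both libraries (0 to 2 with each left out, 2 without control library 4). Of the other vasoactive genes, 1 was called at a minimum count of 30, where fewer genes were tested. With voom or without both libraries 4 were called (2 to 4 with each left out, 4 without control library 4). The Gucy1a1 to Gucy1b1 log2 ratio differed by -0.35 to -0.23 and the Ednra to Ednrb ratio by 1.06 to 1.37 with each library left out. With the longest transcript as length, control levels were 128.4 (Ace), 17.8 (Ece1), 2.91 (Gucy1b1), 2.40 (Gucy1a1) and 1.79 CPM per kb (Ednra), and only Nos3 and Ednra changed places.

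Replicate numbers are shared between groups, but same-numbered libraries did not deviate together (correlations of -0.17, 0.09, 0.26, -0.25 and 0.03 over 14270 genes), so they were not treated as pairs. With the replicate block, Gucy1b1 was at -0.53 (adjusted p = 0.0607), 21 genes were higher, and Ednrb and Gucy1a1 remained past the limit. The differences of the log2 ratios, -0.29 and 1.14, cannot change with this block, since each block held a control and a KO library.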
